A study of Rattus norvegicus with 4 samples.

Results

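Smooth muscle differentiation genes were followed in primary rat microvascular cells cultured on stiff or on soft extracellular matrix. The 10 genes, chosen by symbol, were Acta2, Tagln, Cnn1, Myh11, Actg2, Lmod1, Smtn, Des, Synpo2 and Myocd, of 23608 genes in the deposited table, and all 10 were present and reached the expression minimum of 1 CPM (counts scaled to library size) in at least 1 library. The study asked how matrix stiffness and a TGF-beta inhibitor act on microvessels and on the turning of pericytes into myofibroblasts. Its 4 groups were stiff matrix with A83-01, stiff matrix alone, soft matrix with A83-01 and soft matrix alone, each 1 library of wild type vascular cells from subcutaneous soft connective tissue. A83-01 is a small molecule that blocks the type I receptor kinases for TGF-beta and activin. The labels state neither its dose nor the stiffness of either matrix. The libraries hold the RNA of whole cultures, so in each result fewer cells expressing a gene and less of its RNA per cell cannot be told apart.

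Smooth muscle cells, pericytes and myofibroblasts pull on their surroundings with actin filaments moved by myosin. As they mature they add smooth muscle isoforms of these proteins, which are used as markers of the contractile state. The transcription factor SRF drives many of these genes from CArG boxes in their regulatory DNA. Its partners are myocardin, found in smooth and cardiac muscle, and the related MRTF proteins, which enter the nucleus when actin assembles. TGF-beta signalling is a well known inducer of Acta2 in fibroblasts and pericytes.

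The promoter of Acta2 is shown because it carries SRF-type elements close to the start, and those of Actg2 and Cnn1 are shown for comparison. RefSeq promoters on build GRCr8 were matched for 6 of the 10 genes by symbol: Acta2, Cnn1, Actg2, Smtn, Des and Synpo2. Each line gives the 250 bases before the annotated start, 5′ to 3′ on the gene's strand. Capitals mark a CArG box whose core of 6 bases holds at most 1 G or C, or the MCAT element CATTCC, a motif for TEAD factors, on either strand.
Acta2, chr1:241172504-241172753, minus strand: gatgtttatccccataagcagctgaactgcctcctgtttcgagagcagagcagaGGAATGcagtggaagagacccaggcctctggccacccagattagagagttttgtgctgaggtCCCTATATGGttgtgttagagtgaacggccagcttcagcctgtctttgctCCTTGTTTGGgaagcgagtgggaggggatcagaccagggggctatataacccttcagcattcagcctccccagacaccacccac
Actg2, chr4:117594040-117594289, minus strand: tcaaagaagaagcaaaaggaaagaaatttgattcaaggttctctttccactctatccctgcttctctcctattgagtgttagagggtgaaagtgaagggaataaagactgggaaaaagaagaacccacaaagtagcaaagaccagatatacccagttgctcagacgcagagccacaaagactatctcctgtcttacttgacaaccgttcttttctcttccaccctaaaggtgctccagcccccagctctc
Cnn1, chr8:28908187-28908436, plus strand: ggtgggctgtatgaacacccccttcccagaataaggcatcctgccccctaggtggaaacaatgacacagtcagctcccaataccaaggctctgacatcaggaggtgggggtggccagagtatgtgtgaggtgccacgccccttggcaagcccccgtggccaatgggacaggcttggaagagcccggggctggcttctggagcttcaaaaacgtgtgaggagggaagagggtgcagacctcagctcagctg

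Acta2 held 2 such CArG boxes, CCCTATATGG from 134 to 125 bases before the start and CCTTGTTTGG from 84 to 75 bases before it, and 1 MCAT element from 196 to 191 bases before it. Of the 6 genes with a promoter, the others held neither motif in this window. Among 33469 RefSeq promoters of the same length, 8.08% held a CArG box with at most 1 G or C in the core, 1.5% one with a core of A and T alone, and 12.1% an MCAT element. A match of letters is a description of the window and not evidence of binding.

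Total counts lay between 32271844 and 33416200 per library, and the factors of the trimmed mean of M-values (TMM), which scale library size, lay between 0.876 and 1.07. Levels below are TMM-normalised CPM, with a count of 0 given as 0 CPM. As a guide to the lowest levels, 3 counts corresponded to between 0.0842 and 0.103 CPM. The 10 genes together took 0.594% of all counts in stiff with A83-01 (95% exact binomial interval 0.591 to 0.596) and 0.720% in stiff (0.717 to 0.723). They took 0.0449% in soft with A83-01 (0.0442 to 0.0456) and 0.0745% in soft (0.0736 to 0.0755). Intervals cover counting error only: there was 1 library per group, and no molecular identifiers are mentioned. The short names of the stiff libraries have another form than those of the soft ones, so matrix and a separate preparation of the cells, if there was one, cannot be told apart. The labels do not say whether the libraries came from separate animals, and p-values therefore reflect spread among these 4 libraries alone, which may be technical.

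All 10 genes were higher in both stiff libraries than in both soft ones, an arrangement found in 26.5% of the 13634 genes compared. The additive model of stiffness and inhibitor over the 4 libraries, tested by edgeR's quasi-likelihood method and adjusted by Benjamini-Hochberg, called 9 of the 10 higher on stiff matrix and 0 lower. Over all genes the same test called 2.35% higher and 3.29% lower. Myocd, among the 9, reached the minimum of 1 CPM on stiff matrix only. The 10 genes and the lists below were chosen with earlier results of these data known. Their excess over all genes is therefore a description and not independent support. The median log2 change of the 10 was 4.35, against 0.01 over all genes. The model's residual is the difference between the stiffness effects with and without inhibitor, on 1 degree of freedom per gene. The quasi-likelihood method also borrows spread from the other genes compared, so each p-value rests on their residuals too. Without the inhibitor as a term, the quasi-likelihood test called 4 of the 10, and adjusted p for Acta2, Tagln, Cnn1, Des and Myocd then lay between 0.0505 and 0.165.

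**Figure D1:**
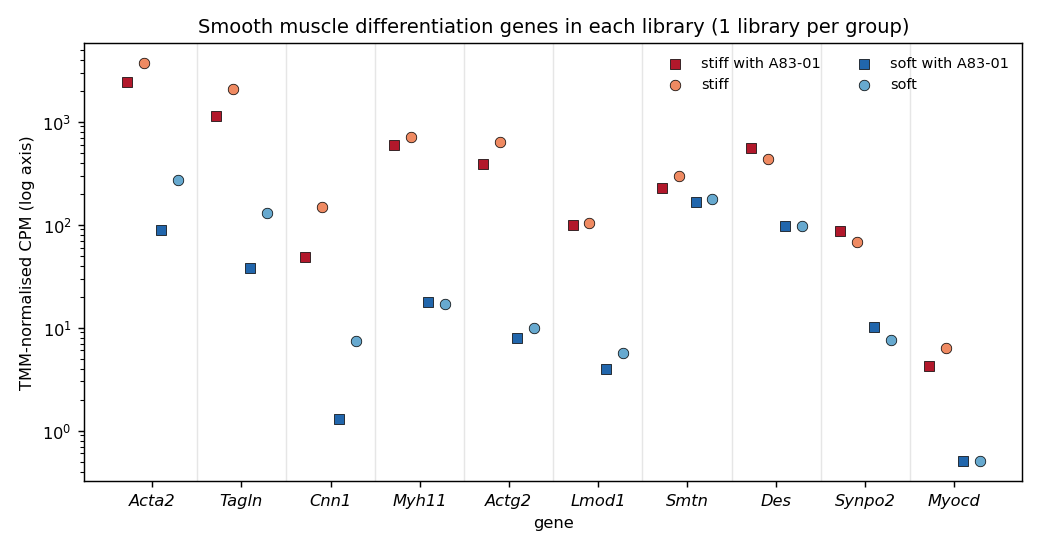
TMM-normalised CPM (log axis) of the 10 genes, 1 point per library: squares with A83-01, circles without, red shades stiff, blue shades soft. Every red point lies above both blue points of its gene, by the least for Smtn (229 and 299 CPM, against 167 and 177 CPM).

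Acta2 and Actg2 encode the vascular and the enteric smooth muscle actin. Acta2 stood at 2428 CPM in stiff with A83-01 and 3691 CPM in stiff, against 88.9 CPM in soft with A83-01 and 271 CPM in soft. The order of the libraries was the same for Actg2, which stood at 385 CPM in stiff with A83-01 and 641 CPM in stiff, against 7.97 CPM in soft with A83-01 and 9.95 CPM in soft. Thus the stiff library treated with A83-01 still held more of both actin transcripts than untreated soft cells did. Acta2 rose on stiff matrix by 4.27 (log2, SE 0.360, adjusted p = 0.0125, edgeR quasi-likelihood) and Actg2 by 5.80 (SE 0.220, adjusted p = 0.00449). The stiffness change of Actg2 ranked 16th of all genes compared and that of Acta2 ranked 32nd. Between libraries, Actg2 was 48.0-fold higher on stiff matrix with A83-01 in both (95% counting interval 42.9 to 54.8) and 64.0-fold higher without (57.8 to 72.0). Muscle actins are close to identical as proteins. The labels do not say how reads matching several actin genes were counted, so the split among these genes is uncertain.

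The next members bind actin filaments. Tagln encodes transgelin (SM22), an early marker of the lineage, and stood at 1126 CPM in stiff with A83-01 and 2101 CPM in stiff, against 38.3 CPM in soft with A83-01 and 130 CPM in soft. Cnn1 encodes calponin, which restrains actin-activated myosin, and stood at 48.3 CPM in stiff with A83-01 and 150 CPM in stiff, against 1.28 CPM in soft with A83-01 and 7.47 CPM in soft. In both genes the stiff groups lay well above the soft ones, and on each matrix the library with A83-01 was the lower. Tagln rose on stiff matrix by 4.44 (log2, SE 0.315, adjusted p = 0.00848) and Cnn1 by 4.71 (SE 0.268, adjusted p = 0.00680) in edgeR's quasi-likelihood test. The 43 counts of Cnn1 in soft with A83-01 leave its 35.9-fold ratio of stiff to soft under A83-01 with a counting interval of 27.8 to 52.1.

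Lmod1 encodes leiomodin, which starts new actin filaments in smooth muscle. It stood at 99.3 CPM in stiff with A83-01 and 105 CPM in stiff, against 3.97 CPM in soft with A83-01 and 5.65 CPM in soft, so both stiff libraries were close to each other and far above both soft ones. Synpo2, encoding an actin-bundling protein of Z-discs and dense bodies, stood at 87.3 CPM in stiff with A83-01 and 67.2 CPM in stiff, against 10.1 CPM in soft with A83-01 and 7.56 CPM in soft. Here the library with A83-01 was the higher on each matrix. Lmod1 rose on stiff matrix by 4.42 (log2, SE 0.181, adjusted p = 0.00449) and Synpo2 by 3.13 (SE 0.141, adjusted p = 0.00453) in the quasi-likelihood test of edgeR.

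Smtn was the exception. Its protein, smoothelin, is a cytoskeletal protein used as a marker of contractile smooth muscle. It stood at 229 CPM in stiff with A83-01 and 299 CPM in stiff, against 167 CPM in soft with A83-01 and 177 CPM in soft. The groups did not overlap, but the ratio of stiff to soft was only 1.37-fold with A83-01 in both (1.32 to 1.42) and 1.69-fold without (1.63 to 1.75). Smtn missed the threshold for stiffness, with a log2 change of 0.61 (SE 0.162, adjusted p = 0.108, edgeR quasi-likelihood), a change that ranked 1485th of all genes compared.

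Myh11 encodes the smooth muscle myosin heavy chain, the motor of the contractile filament and a late marker. It stood at 597 CPM in stiff with A83-01 and 718 CPM in stiff, against 17.7 CPM in soft with A83-01 and 17.0 CPM in soft. Both soft libraries held nearly the same level. Desmin, encoded by Des, forms the intermediate filaments of muscle cells and of many pericytes. Des stood at 560 CPM in stiff with A83-01 and 438 CPM in stiff, against 96.6 CPM in soft with A83-01 and 96.7 CPM in soft. Again the soft libraries stood together, while on stiff matrix the A83-01 library was the higher. Myh11 rose on stiff matrix by 5.24 (log2, SE 0.210, adjusted p = 0.00449) and Des by 2.36 (SE 0.184, adjusted p = 0.0109) in edgeR's quasi-likelihood test.

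Myocd, encoding the coactivator myocardin, was the least abundant member. It had 152 counts in stiff with A83-01 and 183 in stiff, against 17 in soft with A83-01 and 17 in soft, which is 4.26 and 6.30 CPM against 0.507 and 0.508 CPM. Both stiff libraries lay above both soft ones, and at this depth the soft libraries could not be told apart. Myocd rose on stiff matrix by 3.34 (log2, SE 0.362, adjusted p = 0.0186, edgeR quasi-likelihood), with a ratio of 7.61-fold under A83-01 (counting interval 5.08 to 14.8) and 11.2-fold without inhibitor (7.53 to 21.7). It reached the minimum of 1 CPM in the stiff libraries only, so it entered that test through the matrix where it was high. Its call for stiffness is therefore a description. With no filter beyond 1 count, its adjusted p in the quasi-likelihood test was 0.00855.

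Pairs of libraries were also compared directly, with no test. A gene was counted as 2-fold apart when its ratio reached 2 and its counting interval excluded 1. Of the 10 genes, 9 were at least 2-fold higher in stiff with A83-01 than in soft with A83-01, where 6.88% of all genes were higher and 6.72% lower. Again 9 were at least 2-fold higher in stiff than in soft without inhibitor, where 5.33% of all genes were higher and 8.58% lower (3.87% and 11.7% when scaled by total counts, which moved the median of all genes to -0.23 on the log2 scale). The 9 genes were the same in both pairs, all except Smtn. With TMM scaling each of them was also over 4-fold higher, but for Des without inhibitor the log2 ratio of 2.18 became 1.95 with total counts and 1.93 with FPKM, both under 4-fold. The median ratio of the 10 members was 4.70 on the log2 scale with A83-01 in both libraries and 3.89 without, against 0.01 and 0.00045 over all genes.

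**Figure D2:**
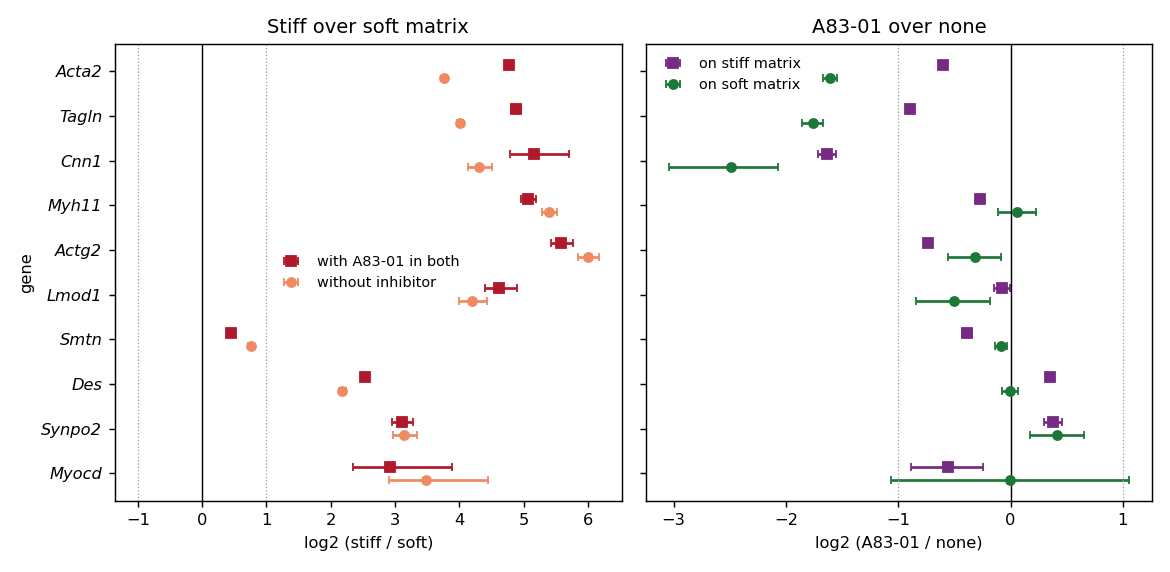
Log2 ratio of TMM-normalised CPM between library pairs for the 10 genes, with 95% counting intervals that hold no replicate error; dotted lines mark 2-fold. In the left panel 9 of 10 genes lie right of the 2-fold line in both pairs. In the right panel Acta2, Tagln and Cnn1 on soft matrix, and Cnn1 on stiff matrix, lie left of it.

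The response to A83-01 divided the genes. On soft matrix, 3 of the 10 were at least 2-fold lower with the inhibitor, where 2.44% of all genes were lower and 2.18% higher. Cnn1 was 5.60-fold lower (counting interval 4.20 to 8.24), Tagln 3.39-fold lower (3.19 to 3.61) and Acta2 3.05-fold lower (2.92 to 3.18). Among the rest, Lmod1 was 1.42-fold lower (1.13 to 1.79) and Actg2 1.25-fold lower (1.06 to 1.47). Intervals of Myh11, Des and Myocd included equality on soft matrix, and Synpo2 was 1.33-fold higher (1.13 to 1.58). The interval for Myocd, 0.479 to 2.08 as a ratio, leaves a change of 2-fold in either direction undetected at this depth.

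On stiff matrix, only Cnn1 of the 10 was at least 2-fold lower with A83-01, where 4.47% of all genes were lower and 7.80% higher (2.88% and 12.1% when scaled by total counts). Cnn1 was 3.10-fold lower (counting interval 2.93 to 3.28), Tagln 1.86-fold lower (1.84 to 1.89), Actg2 1.66-fold lower (1.63 to 1.70) and Acta2 1.52-fold lower (1.51 to 1.53). Myocd was 1.47-fold lower (1.18 to 1.84) and Smtn 1.31-fold lower (1.27 to 1.35). Both Des and Synpo2 were higher with the inhibitor, by 1.28-fold (1.25 to 1.31) and 1.30-fold (1.23 to 1.38). Scaling by total counts moved the median of all genes to 0.31 on the log2 scale in this pair, so the sizes given depend on it. Cnn1 had log2 ratios of -1.63 with TMM scaling and -1.35 with total counts, Tagln -0.90 and -0.62. Actg2 had -0.73 and -0.45, and Acta2 -0.60 and -0.32, while Des had 0.35 and 0.64 and Synpo2 0.38 and 0.66. Myocd had -0.56 and -0.27, and Smtn -0.38 and -0.10. The counting intervals do not hold this shift. Signs turned for Myh11 and Lmod1, at -0.27 and -0.08 with TMM scaling and 0.016 and 0.20 with total counts.

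In the additive model, 0 of the 10 genes passed for A83-01 by edgeR's quasi-likelihood method after Benjamini-Hochberg adjustment, where 0.044% of all genes were called lower and 0 called higher. That split depended on the method: over all genes, 563 were called higher and 271 lower with total-count scaling, and 219 higher and 244 lower by DESeq2. At an unadjusted p of at most 0.05, 4 of the 10 were lower, Acta2, Tagln, Cnn1 and Actg2, and Synpo2 was higher, beside 6.04% of all genes lower and 7.25% higher. The log2 values were -1.99 for Cnn1 (SE 0.246, adjusted p = 0.108), -1.33 for Tagln (SE 0.280, adjusted p = 0.199) and -1.10 for Acta2 (SE 0.321, adjusted p = 0.288) in that edgeR test. DESeq2's Wald test called these 3 genes lower, with adjusted p of 5.7e-09, 3.5e-05 and 0.00263, and the quasi-likelihood test with total-count scaling called the same 3, while limma-voom called 0. Calls for A83-01 among these genes thus depended on the tool and the scaling. The median log2 change of the 10 was -0.31, against 0.01 over all genes.

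The difference between the A83-01 responses on the matrices has no residual degree of freedom and was not tested. With A83-01, Acta2 was lower by less on stiff than on soft matrix, with log2 responses of -0.60 and -1.61, a difference of 1.00 (stiff minus soft, counting interval 0.94 to 1.06). For Tagln the difference was 0.86 (0.77 to 0.95) and for Cnn1 it was 0.85 (0.38 to 1.33). The same direction held for these 3 genes with total-count scaling and with the deposited FPKM. Differences of the opposite sign were found for Actg2 (-0.42, interval -0.65 to -0.18), Myh11 (-0.33, interval -0.49 to -0.16) and Smtn (-0.30, interval -0.37 to -0.23), and with total-count scaling these 3 intervals no longer lay below 0. In all, counting intervals lay above 0 for 5 of the 10 and below 0 for 3, against 27.4% and 25.8% of all genes, so such intervals were common.

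To compare genes with one another, the deposited FPKM values, which are scaled by transcript length, were used; they carry no depth, so no interval is given. Acta2 ranked first of the 10 in every library, at 1503 FPKM in stiff with A83-01 and 1858 FPKM in stiff, against 52.8 FPKM in soft with A83-01 and 162 FPKM in soft. Myocd ranked last in every library, at 0.898 and 1.08 FPKM on stiff matrix with and without A83-01, against 0.0840 and 0.0848 FPKM on soft matrix with and without it. Between them the order changed. Smtn ranked 6 and 7 on stiff matrix with and without A83-01, against 2 and 3 on soft matrix with and without it. Tagln ranked 2 in every library but soft with A83-01, where it ranked 4 behind Smtn and Des. Together, Acta2 and Tagln took 63.9% of the counts of the 10 genes in stiff with A83-01 and 70.5% in stiff, against 29.4% in soft with A83-01 and 55.5% in soft.

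Each gene was set against the other isoforms of its family, as a share of the family's summed FPKM. Acta2 and Actg2 together made up 35.9% of the 6 actin genes in stiff with A83-01 and 40.3% in stiff, against 3.20% in soft with A83-01 and 7.71% in soft. Actb, the cytoplasmic beta-actin, took most of the remainder, with 59.3% in stiff with A83-01 and 55.5% in stiff, against 85.8% in soft with A83-01 and 82.1% in soft. Actin transcripts thus stood in a different mixture on each matrix. The striated muscle actins Acta1 and Actc1 stayed below 0.08% each in every library.

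Myh11 took 32.3% of the myosin heavy chains Myh9, Myh10, Myh11 and Myh14 in stiff with A83-01 and 29.6% in stiff, against 2.62% in soft with A83-01 and 2.07% in soft. The share of Myh10, a non-muscle chain, was 8.72% in stiff with A83-01 and 18.0% in stiff, against 19.7% in soft with A83-01 and 20.4% in soft. Tagln took 54.6% of the transgelins in stiff with A83-01 and 73.6% in stiff, against 5.32% in soft with A83-01 and 16.3% in soft. By FPKM, Tagln2, the widely expressed isoform, was thus the larger in both soft libraries and the smaller in both stiff ones. By counts, with no scaling for length, Tagln2 was slightly the larger in stiff with A83-01 as well, at 50.7% against 49.3% for Tagln. Cnn1 stayed the minor calponin in every library, with 7.71% in stiff with A83-01 and 12.9% in stiff, against 0.275% in soft with A83-01 and 1.24% in soft. Cnn2 and Cnn3, which many cell types express, made up the rest.

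Des made up 8.62% of the intermediate filament genes Des, Vim, Nes and Synm in stiff with A83-01 and 5.17% in stiff, against 1.56% in soft with A83-01 and 1.65% in soft, with vimentin, Vim, at 89.9% or more in each library. Synpo2 made up 49.8% of the synaptopodins in stiff with A83-01 and 39.4% in stiff, against 11.1% in soft with A83-01 and 6.32% in soft. Its shares were the larger with A83-01 on each matrix. Myocd made up 3.51% of the sum with Mkl1, which encodes MRTF-A, in stiff with A83-01 and 5.12% in stiff, against 0.471% in soft with A83-01 and 0.471% in soft. Lmod1 and Smtn had almost no competing isoform among the genes read: they held about 99.7% or more of their families' FPKM in every library. Lmod2 was not found by symbol, so Lmod1 was set against Lmod3 alone. Of the 10 shares, 9 were higher on stiff than on soft matrix both with and without inhibitor, Lmod1 being the exception. The share of Smtn, counted among the 9, hardly differed. It was 99.80% in stiff with A83-01 and 99.84% in stiff, against 99.78% in soft with A83-01 and 99.74% in soft. Its differences rested on Smtnl2, at 10 to 12 counts per library.

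**Figure D3:**
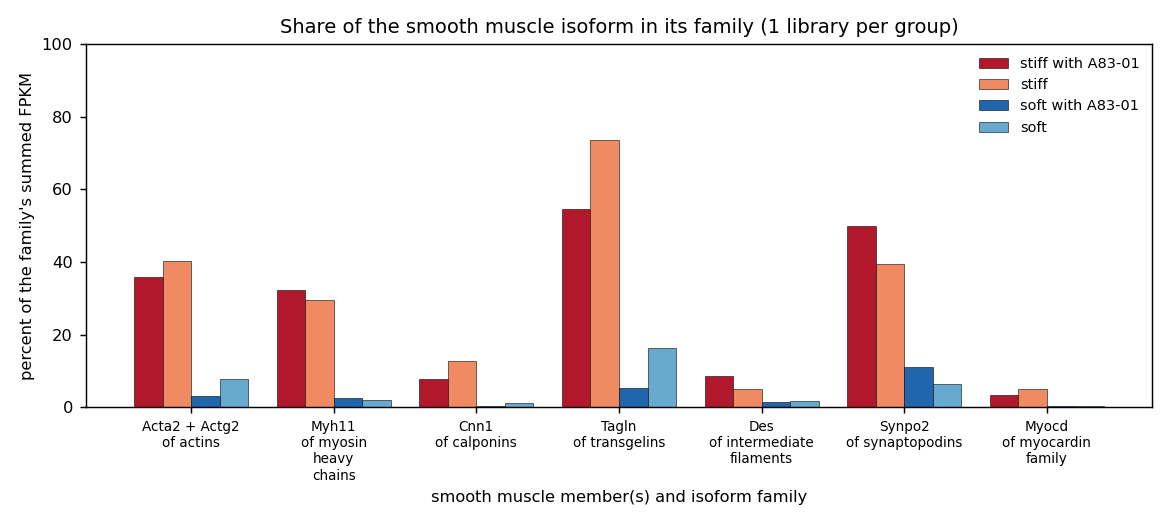
Share of each smooth muscle isoform in the summed FPKM of its family, in percent, 1 bar per library, with no error since there was 1 library per group; Lmod1 and Smtn, near 100%, are left out. The stiff libraries (red shades) exceed the soft ones (blue shades) in every family shown, and Tagln exceeds 50% of the transgelins in both stiff libraries.

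Other genes of the smooth muscle contractile apparatus were read from a list of 24, also chosen with earlier results of these data known. Of that list, 23 were compared. Of these 23, 15 rose on stiff matrix and 0 fell by edgeR's quasi-likelihood method after Benjamini-Hochberg adjustment, beside 2.35% of all genes called higher and 3.29% lower, with a median log2 change of 2.15 against 0.01 over all genes. Pdlim3 and Kcnmb1, among the 15, reached the minimum of 1 CPM on stiff matrix only. Myl9, the regulatory light chain of smooth muscle myosin, stood at 820 CPM in stiff with A83-01 and 908 CPM in stiff, against 37.7 CPM in soft with A83-01 and 67.6 CPM in soft, and rose by 4.09 (log2, SE 0.263). Ppp1r14a, encoding an inhibitor of myosin phosphatase, rose by 3.53 (SE 0.271) and the tropomyosin gene Tpm2 by 3.04 (SE 0.168). For A83-01, 0 of the 23 passed in that test. Their log2 values for the inhibitor lay above 0 for 12 and below 0 for 11, with a median of 0.011 against 0.014 over all genes. Cald1, encoding caldesmon, and Tpm1, the most abundant tropomyosin of the list, are named for their abundance. They had log2 values for the inhibitor of -0.61 (SE 0.229) and -0.61 (SE 0.183).

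Regulators of the smooth muscle programme were read from a list that leaves out Myocd, which rose as given above. Of 21 compared, 3 rose on stiff matrix and 0 fell by the same adjusted edgeR test, beside 2.35% of all genes called higher and 3.29% lower. Their median log2 change was 0.15, against 0.01 over all genes. The 3 encode LIM-domain proteins: Fhl1 rose by 2.52 (log2, SE 0.238), Csrp1 by 1.86 (SE 0.191) and Fhl2 by 0.88 (SE 0.153). Srf itself, named after its values were seen, stood at 129 CPM in stiff with A83-01 and 150 CPM in stiff, against 90.6 CPM in soft with A83-01 and 100.3 CPM in soft, and missed the threshold with 0.55 (SE 0.131, adjusted p = 0.0878, edgeR quasi-likelihood). Mkl1 stood at 94.3 CPM in stiff with A83-01 and 93.7 CPM in stiff, against 70.8 CPM in soft with A83-01 and 71.3 CPM in soft, and missed it with 0.40 (SE 0.121, adjusted p = 0.133, same edgeR test). For A83-01, 0 of the 21 passed. Csrp1, their most abundant member, had a log2 value for the inhibitor of -0.48 (SE 0.185), and the homeobox gene Prrx1 had 0.14 (SE 0.145).

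**Figure D4:**
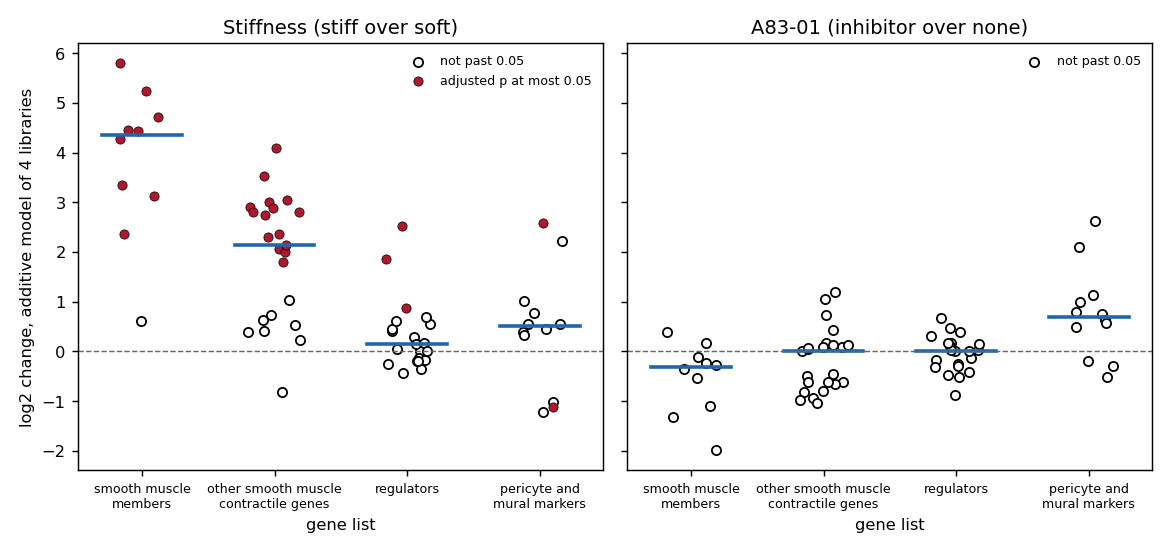
Log2 change of each gene for stiffness (left) and for A83-01 (right) in the additive model, by gene list; filled points have an adjusted p of at most 0.05 in edgeR's quasi-likelihood test, blue bars are list medians and the dashed line is the median of all genes. For stiffness 9 of 10 members, 15 of 23 other contractile genes and 3 of 21 regulators are filled and positive; for A83-01 none of the points shown is filled.

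Markers of the cell types that could carry these genes were read beside them. Skeletal muscle markers, 14 of them in the table, summed to 6.42 CPM in stiff with A83-01 and 7.33 CPM in stiff, against 7.01 CPM in soft with A83-01 and 6.06 CPM in soft, with Myf5, Pax7 and Myh7 at 0 counts in every library. The most abundant, Neb and Myh3, stood at 3.44 CPM or below in every library, and 0 of the 4 compared passed for stiffness (their log2 values lay between -1.24 and 1.14). The 6 cardiac markers summed to at most 0.269 CPM in any library, with Myh6 and Myl2 at 0 throughout. Skeletal and cardiac muscle markers were thus near 0 in libraries where Des stood at up to 560 CPM.

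The 13 pericyte and mural markers summed to 5471 CPM in stiff with A83-01 and 4130 CPM in stiff, against 5775 CPM in soft with A83-01 and 4087 CPM in soft, and their sum overlapped between matrices. The overlap rested on Anpep, a surface peptidase gene, at 1386 CPM in stiff with A83-01 and 867 CPM in stiff, against 3507 CPM in soft with A83-01 and 1414 CPM in soft. Summed without it, a choice made after seeing the data, the markers stood at 4085 and 3262 CPM on stiff matrix with and without A83-01, against 2268 and 2673 CPM on soft matrix with and without it. Both stiff libraries were then the higher. The 10 smooth muscle genes summed to 5565 and 8216 CPM on stiff matrix with and without A83-01. On soft matrix they summed to 432 and 723 CPM with and without it. Their gap between matrices was thus far wider, and on stiff matrix their sum was the lower with A83-01, not the higher. By gene, 8 of the 13 mural markers were higher in both stiff libraries than in both soft ones, as were 26.5% of all genes compared. These were Pdgfrb, Cspg4, Rgs5, Kcnj8, Notch3, Mcam, Higd1b and Vtn, and only Rgs5 passed the test given next. Higd1b stood at 0.729 CPM or below in every library, and Vtn at 0.998 CPM in stiff against 0.925 CPM in soft with A83-01. Lower in both were 3, Anpep, Ndufa4l2 and Cox4i2, an arrangement whose share over all genes was not computed. Of the 12 compared, 1 rose on stiff matrix and 1 fell: Rgs5, abundant in pericytes, rose by 2.59 (log2, SE 0.346) and Ndufa4l2 fell by 1.11 (SE 0.161) in edgeR's quasi-likelihood test. Over all genes that test called 2.35% higher and 3.29% lower, so 1 call in each direction among 12 genes says little about a cell type, as does 1 among the 10 endothelial markers. Endothelial markers, 10 in all, summed to 2929 CPM in stiff with A83-01 and 1855 CPM in stiff, against 2212 CPM in soft with A83-01 and 2233 CPM in soft. Of these, 1 fell, Vwf, encoding von Willebrand factor, by 1.69 (SE 0.197). Fibroblast markers, 10 in the table, summed to 27848 CPM in stiff with A83-01 and 74329 CPM in stiff, against 43340 CPM in soft with A83-01 and 54588 CPM in soft, a sum led by Col1a1. Of these, Mfap5 rose by 2.18 (SE 0.167), while Dcn fell by 2.53 (SE 0.404) and Pdgfra fell by 2.18 (SE 0.216). The 7 leukocyte markers in the table summed to 68.0 CPM in stiff with A83-01 and 68.8 CPM in stiff, against 144 CPM in soft with A83-01 and 100.4 CPM in soft, with Lyz2 up and Cd74 and Adgre1 down on stiff matrix. The part of cell composition in the smooth muscle values was not tested.

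The genes whose pattern was most like that of the members were found by the distance between log2 CPM profiles over the 4 libraries, each centred on its own mean, to the median profile of the 10. Among genes outside the members the nearest 8 were Myl9 (distance 0.413), Hmcn1 (0.532), Ppp1r14a (0.730), Tpm2 (0.937), Olr63 (0.952), Tgfb3 (1.05), Ctgf (1.09) and Cdh20 (1.09). In soft with A83-01 and in soft, Olr63 stood at 0.239 and 0.657 CPM and Cdh20 at 0.0895 and 0 CPM. The distances of these genes therefore depend on the 0.5 CPM added before taking logs. Of the members, Acta2 lay at 0.484, Lmod1 at 0.701 and Tagln at 0.715. The remaining members lay between 1.19 (Cnn1) and 3.41 (Smtn, the farthest), each farther from the median profile than all 8 genes named above. Hmcn1, encoding the extracellular matrix protein hemicentin, stood at 80.0 CPM in stiff with A83-01 and 110 CPM in stiff, against 3.85 CPM in soft with A83-01 and 13.5 CPM in soft. Tgfb3, a TGF-beta ligand, stood at 236 CPM in stiff with A83-01 and 393 CPM in stiff, against 9.10 CPM in soft with A83-01 and 11.8 CPM in soft. Likeness over 4 libraries is a description of these libraries.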

How the data were processed

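RNA of rat microvascular cells was read as 1 library for each of 4 groups, taken from the sample titles. The authors deposited whole-number read counts per gene, not normalised, and a table of FPKM values, which divide counts by transcript length and library size. Per the submitters' processing notes, HISAT2, edgeR and Rnor_6.0 were used; their versions, the counter, the annotation and the strand setting are not stated. Library sizes were 32271844 to 33416200 counts.

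The 13634 genes reaching 1 CPM after TMM scaling in any library were fitted in R 4.3.3 with edgeR 4.0.16 (glmQLFit, additive stiffness and inhibitor, 1 residual degree of freedom, Benjamini-Hochberg adjustment at 0.05, common dispersion 0.0351); standard errors are the log2 change over the root of F. Library pairs were compared by log2 ratios with a prior count of 2 and 95% Clopper-Pearson counting intervals. FPKM was used for levels between genes. Alternatives used DESeq2 1.42.0, limma 3.58.1, other scalings, filters, prior counts and FPKM + 0.1. Profiles used log2(CPM + 0.5). The fit was run on simulated counts with known stiffness changes, no inhibitor effect and no difference between responses. It therefore does not cover the residual of these data, which is that difference. The intervals were run on simulated Poisson counts, which hold counting error only.

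The members and lists were chosen with earlier results of these data known. Named genes were all members and their isoforms; from each other list and for each factor, up to 3 genes in each direction with the largest change past 0.05, otherwise the 2 most abundant; and the 8 nearest profiles.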

Additional observations from a re-analysis of the deposited data

How the results depend on the processing

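For stiffness, 9 members were called under DESeq2 size factors, total counts, DESeq2's Wald test, limma-voom, no filter and a filter of 5 CPM, and 4 with the other factor left out. Over all genes, 769 calls became 1757 with total counts, 1311 with DESeq2 and 30 with the other factor left out. For A83-01, 6 genes became 834 with total counts (563 higher), 463 with DESeq2 (219 higher), 27 without the filter, 3 with limma-voom, and 0 with DESeq2 size factors or the other factor left out. Members called for A83-01 became 3 with total counts and 3 with DESeq2's test, and stayed at 0 under the other 5. The cause was not tested.

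Between library pairs, counts of members at 2-fold were the same under each scaling, prior count and unit tried. At 4-fold, Des without inhibitor was lost with total counts (1.95) and FPKM (1.93), and 0 members were lower with A83-01 on stiff matrix and 1 on soft. Intervals of the difference between A83-01 responses excluded 0 for 8 members, and for 5 with total counts. Myh11 turned to 0.042 for A83-01 in the additive model with total counts, and on stiff matrix to 0.016 with total counts and 0.030 with FPKM; Lmod1 there turned to 0.20 and 0.22. The difference for Smtn turned to 0.0026 with FPKM. Stiffness calls kept their direction in each alternative run, and 9 isoform shares were higher on stiff matrix with CPM in place of FPKM as well. With CPM, however, Tagln no longer exceeded Tagln2 in stiff with A83-01. Leaving out a library leaves no residual degree of freedom, so no test was possible. No paired analysis was possible because each group holds 1 library. Depth limits Myocd, with 17 counts in each soft library.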
